A study of Mus musculus with 12 samples.

Results

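Genes for 10 plasma proteins that are known mainly as products of the liver were followed mouse by mouse in RNA-seq of mouse kidneys. They were the fibrinogen chains *Fga*, *Fgb* and *Fgg*, the acute-phase genes *Itih4* and *Hp*, and the carrier and transport genes *Alb*, *Apoa1*, *Apoh*, *Ahsg* and *Ttr*. The members were taken by gene name, and all 10 were found among the 54532 genes of the count table and passed the filter on low counts. They were picked with results of the cystic against noncystic *Pkd2* +/+ comparison in view, so in that comparison their values are given as a description with no test. The study asked whether deletion of the binding motif for miR-17 in the 3′-UTR of *Pkd2* changes polycystic kidney disease, and whole-kidney RNA was sequenced at 18 days of age from 4 groups of 3 C57BL/6 mice (C57BL/6 J in the methods). The noncystic groups were *Pkd1* RC/+ (a hypomorphic RC allele with a floxed allele and no Cre) with *Pkd2* +/+ (mice 19, 20 and 21) or *Pkd2* Δ17/Δ17 (mice 22, 23 and 24), where Δ17 is the motif deletion. The cystic groups were *Pkd1* RC/- with *Pkd2* +/+ (mice 25, 26 and 27) or *Pkd2* Δ17/Δ17 (mice 28, 29 and 30). In them the floxed allele is removed by Ksp-Cre, whose *Cdh16* promoter is active in kidney tubules, so other kidney cells keep it. All 12 mice carried the RC allele, and the motif deletion was present in every cell of the Δ17/Δ17 mice. Library totals ran from 18800307 to 24453033 reads. The labels give neither sex nor litter, and nothing beyond the label of separate mice describes the replicates.

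In the acute-phase response, hepatocytes raise the secretion of some plasma proteins and lower that of others. Cytokines of the interleukin-6 family signal through a receptor that contains gp130 (*Il6st*), and the kinase-activated factor STAT3 then turns on fibrinogen, haptoglobin and *Itih4*. Albumin, transthyretin (*Ttr*), fetuin-A (*Ahsg*) and apolipoprotein A-I are known to fall in that response. Fibrinogen is also known to be made by injured kidney tubules, while albumin that enters the tubule lumen is taken up again by megalin and cubilin in the proximal tubule.

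The fibrinogen genes lie side by side on chromosome 3 within 42.1 kb (GRCm38): *Fgg* (ENSMUSG00000033860) from 83007724 to 83015049, *Fga* (ENSMUSG00000028001) from 83026076 to 83033627, and *Fgb* (ENSMUSG00000033831) on the reverse strand from 83040141 to 83049863. The other coordinates were chromosome 14, 30886476 to 30902353 for *Itih4* (ENSMUSG00000021922), chromosome 8, 109575128 to 109579172 for *Hp* (ENSMUSG00000031722) and chromosome 5, 90460897 to 90476602 for *Alb* (ENSMUSG00000029368). *Apoa1* (ENSMUSG00000032083) lies on chromosome 9 from 46228580 to 46230466, *Apoh* (ENSMUSG00000000049) on chromosome 11 from 108343354 to 108414396 and *Ahsg* (ENSMUSG00000022868) on chromosome 16 from 22891277 to 22899449. The annotation places another gene on the opposite strand of *Fgg*, *Apoh* and *Ahsg*, and *Gm11656* overlaps *Apoh* on the same strand. The strand setting of the counting is not given in the sources used here, so reads of those 3 members may hold reads of their neighbours.

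RefSeq promoters (GRCm38.p6, from 250 bases before to 50 after the start) were read for 8 members, all but *Hp* and *Ttr*, and searched on both strands for the STAT motif TTCNNNGAA, the interleukin-6 response motif CTGGGAA and the HNF1 core GTTAAT. Among all 32851 promoters in the table, 8.30% hold the first, 11.1% the second and 7.10% the third. The windows below are shown because they are the matches in the acute-phase members, with 1 carrier promoter beside them, and capitals mark the match.
*Fga*, STAT motif, chr3:83025908-83025937, forward strand: aaggcccccatTTCCTGGAAtgtagattcc
*Fgb*, STAT motif, chr3:83050007-83050036, reverse strand: tgactcaatgaTTCGAGGAAccccctgtgt
*Fgb*, interleukin-6 response motif, chr3:83049937-83049966, reverse strand: aaataaggcttgCTGGGAAgatgttgctca
*Fgg*, interleukin-6 response motif, chr3:83007699-83007728, forward strand: tgtgcgcaaaatCTGGGAAtccctcagagc
*Itih4*, STAT motif, chr14:30886414-30886443, forward strand: gaaacctgcatTTCCGAGAActtgcaccag
*Alb*, HNF1 core, chr5:90460826-90460855, forward strand: gaggtaagtatgGTTAATgatctacagtta
The fibrinogen and *Itih4* promoters each held the first or the second motif. Neither of these motifs was found in the windows of *Alb*, *Apoa1*, *Apoh* and *Ahsg*. The HNF1 core was also present in the *Fga* and *Fgb* windows. A match is a description of the letters and not of binding.

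The members fell into 3 patterns across the mice. The fibrinogens, *Itih4* and *Hp* were higher in every cystic *Pkd2* +/+ mouse than in every noncystic *Pkd2* +/+ mouse. *Alb*, *Apoa1*, *Apoh* and *Ahsg* were high in mouse 25 and mouse 30, with a smaller excess of *Alb*, *Ahsg* and *Apoa1* in mouse 19. *Ttr* was lower in cystic kidneys. Levels below are in CPM (counts scaled to library size, with TMM factors for composition), and levels of different genes are compared only per kb of exon. RNA of whole kidneys cannot tell fewer cells of a type from less RNA in each cell.

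**Figure D1:**
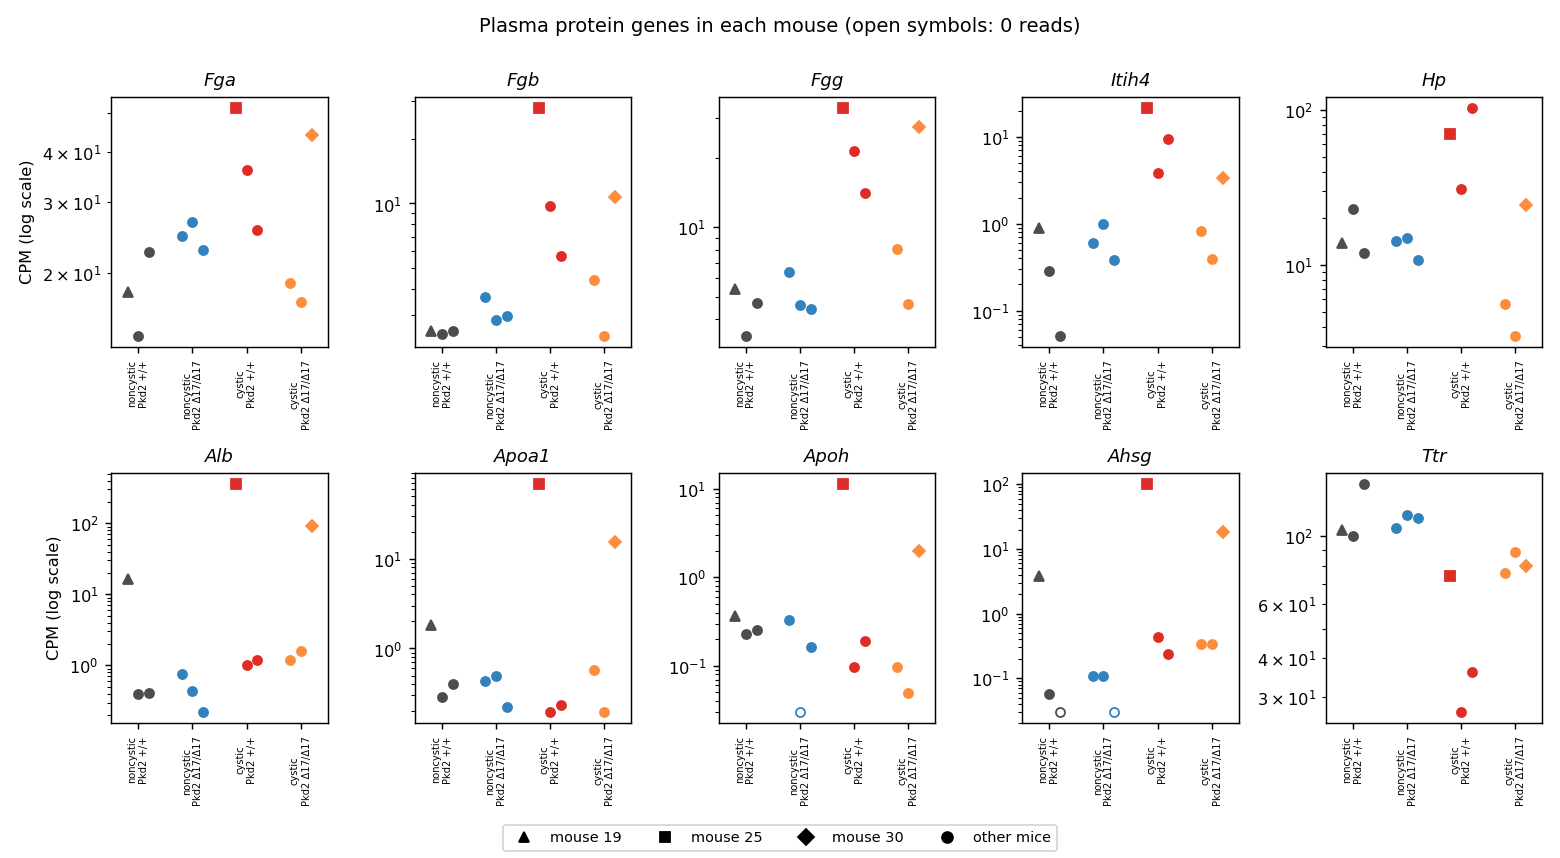
Level of each plasma protein gene in each of the 12 mice, in CPM on a log axis that differs between panels, by group. Triangles, squares and diamonds mark mice 19, 25 and 30, circles the other mice, and open symbols mice with 0 reads, drawn at the bottom of the axis; *Alb* stood at 355 CPM in mouse 25 and 91.2 CPM in mouse 30 but at 0.220 to 1.61 CPM in the 9 mice drawn as circles.

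*Alb*, the most abundant plasma protein, gives the clearest view of the mice that stand apart. It stood at 16.4, 0.399 and 0.407 CPM in noncystic *Pkd2* +/+ mice 19, 20 and 21 and at 0.763, 0.436 and 0.220 CPM in noncystic Δ17/Δ17 mice 22, 23 and 24. In cystic kidneys it stood at 355, 1.03 and 1.18 CPM in +/+ mice 25, 26 and 27 and at 1.20, 1.61 and 91.2 CPM in Δ17/Δ17 mice 28, 29 and 30. In reads, mouse 25 had 9173, mouse 30 had 1896 and mouse 19 had 316, while the other 9 mice had 4 to 33. The 3 mice that stand apart belong to 3 different groups.

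*Ahsg*, which encodes the mineral-binding protein fetuin-A, had 2593 reads in mouse 25, 384 in mouse 30 and 73 in mouse 19, against 0 to 9 reads in each of the other 9 mice. *Apoa1*, the main protein of high-density lipoprotein, had 1751, 324 and 35 reads in those 3 mice and 4 to 12 in the others. *Apoh*, a phospholipid-binding glycoprotein, had 291 reads in mouse 25 and 41 in mouse 30, while mouse 19 with 7 reads lay near the 0 to 6 of the others. These carriers were therefore high in the same mice as *Alb*, whichever group the mouse belonged to.

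A list of 34 hepatocyte genes was read in the same way. Its sum over the whole list was 260.1 CPM in mouse 25 and 84.5 CPM in mouse 30, and 28.8 to 74.6 CPM in the other 10 mice, mouse 19 included at 62.8 CPM. Several listed genes were read in every kidney, the bile acid transporter *Slc10a1* at the highest level. By group the sum ran from 54.4 to 63.8 CPM in noncystic +/+, 59.6 to 74.6 CPM in noncystic Δ17/Δ17, 28.8 to 260.1 CPM in cystic +/+ and 43.1 to 84.5 CPM in cystic Δ17/Δ17 mice. Mouse 25 was the highest mouse for 29 of the 34 genes, with mouse 30 next for 21 of these, and 1 gene (*Mup20*) was at 0 in every mouse. Of the 31 that could be tested, 2 fell and 0 rose between cystic and noncystic Δ17/Δ17 kidneys, where 10.2% and 12.8% of all genes did. Their median log2 fold change was 1.14. In that cystic group only mouse 30 had a sum above the noncystic Δ17/Δ17 mice. Mice 28 and 29, at 46.0 and 43.1 CPM, lay below them.

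The hepatocyte genes that kidneys hardly express separated the same mice. For 16 of the 34 genes, among them the urea cycle enzyme *Cps1*, the tyrosine catabolism enzyme *Tat*, prothrombin (*F2*) and the cytochromes *Cyp3a11* and *Cyp2c29*, no other mouse than 19, 25 and 30 had more than 3 reads. Summed over these 16 genes, mouse 25 had 1737 reads, mouse 30 had 240 and mouse 19 had 42, against 3 to 7 reads in each of the other 9 mice. Cystic +/+ mice 26 and 27 had 7 and 4 of these reads, with 9 and 12 of the 16 genes at 0. These 16 were picked by their levels in the 9 mice, so the low counts there are a description.

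**Figure D2:**
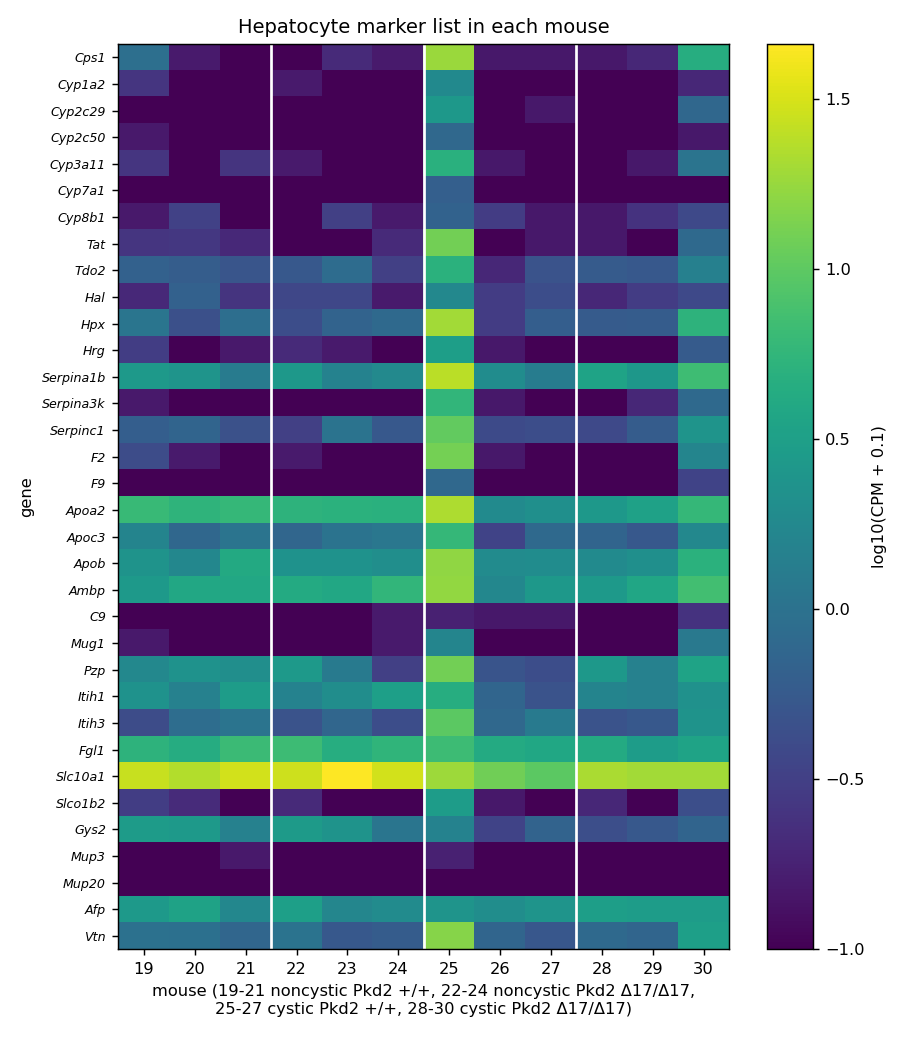
Heat map of the 34 hepatocyte genes (rows) in the 12 mice (columns, white lines between groups), with colour for log10(CPM + 0.1). Mouse 25 is brightest for 29 of the 34 genes and mouse 30 follows, while *Slc10a1*, *Apoa2*, *Ambp* and *Fgl1* are read in every kidney.

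The reads of each gene were also set against the *Alb* reads of the same mouse. *Cps1* had 5.06, 5.07 and 4.91 reads per 100 *Alb* reads in mice 19, 25 and 30, with exact (Clopper-Pearson) 95% intervals of 2.86 to 8.35, 4.61 to 5.56 and 3.94 to 6.04, which cover counting error only. *Hpx*, for the haem carrier hemopexin, had 6.01, 5.51 and 5.70 reads per 100 *Alb* reads in the same mice. *Ahsg* had 23.1, 28.3 and 20.3, and *Apoa1* had 11.1, 19.1 and 17.1. Prothrombin (*F2*) had 1.90, 3.59 and 1.69, with 95% intervals of 3.20 to 4.004 in mouse 25 and 1.15 to 2.39 in mouse 30 that do not overlap, and vitronectin (*Vtn*) had 5.38, 4.23 and 3.38. The highest ratio of the 3 mice was 1.03 times the lowest for *Cps1*, 1.09 times for *Hpx*, 1.25 times for antithrombin (*Serpinc1*), 1.59 times for *Vtn* and 2.13 times for *F2*, so hepatocyte genes themselves did not all keep 1 ratio to *Alb*. The range was 1.40-fold for *Ahsg*, 1.47-fold for *Apoh* and 1.72-fold for *Apoa1*.

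The ratios of *Fga*, *Fgg*, *Hp* and *Ttr* ranged more widely. *Fga* had 110 reads per 100 *Alb* reads in mouse 19, 14.4 in mouse 25 and 48.3 in mouse 30, a range of 7.61-fold. The ranges were 3.54-fold for *Fgg*, 4.30-fold for *Hp* and 30.5-fold for *Ttr*, and 1.98-fold for *Fgb* and 1.65-fold for *Itih4*, within the range of the hepatocyte genes. In the other 9 mice *Fgb* had 148 to 1350 reads per 100 *Alb* reads. *Itih4* had 12.5 (mouse 21) to 800 (mouse 27) in those mice, and its ratio in mouse 19 rests on 17 reads.

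**Figure D3:**
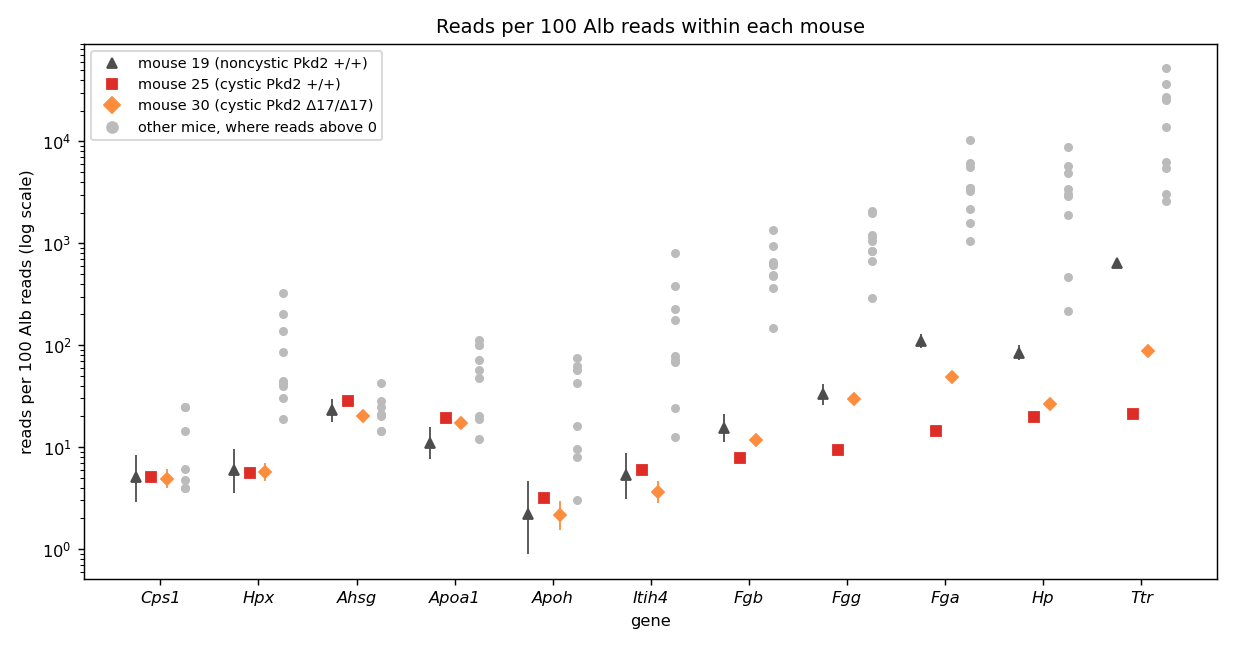
Reads of each gene per 100 *Alb* reads within a mouse, on a log axis, with exact 95% intervals for mice 19, 25 and 30 and grey circles for the other 9 mice where reads were above 0. *Cps1* and *Hpx* lie at 4.91 to 5.07 and 5.51 to 6.01 in the 3 mice, and *Fga*, *Hp* and *Ttr* spread, lowest in mouse 25.

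The fibrinogens were read in every kidney. *Fga*, the Aα chain, stood at 18.0, 13.97 and 22.5 CPM in noncystic +/+ mice 19, 20 and 21, at 24.7, 26.8 and 22.9 CPM in noncystic Δ17/Δ17 mice, at 51.3, 36.1 and 25.6 CPM in cystic +/+ mice 25, 26 and 27, and at 18.9, 16.97 and 44.1 CPM in cystic Δ17/Δ17 mice 28, 29 and 30. *Fgb*, the Bβ chain, stood at 2.54, 2.45 and 2.54 CPM, at 3.65, 2.84 and 2.97 CPM, at 27.9, 9.74 and 5.70 CPM, and at 4.37, 2.40 and 10.7 CPM in the same order. *Fgg*, the γ chain, stood at 5.40, 3.36 and 4.68 CPM, at 6.38, 4.58 and 4.40 CPM, at 33.0, 21.4 and 14.1 CPM, and at 8.03, 4.65 and 27.3 CPM. Each chain was highest in mouse 25, but cystic +/+ mice 26 and 27, whose *Alb* was 1.03 and 1.18 CPM, also lay above all 3 noncystic +/+ mice. In the cystic Δ17/Δ17 group mouse 30 was high and mice 28 and 29 lay close to the noncystic mice.

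Fibrinogen is assembled from equal numbers of its 3 chains, and per kb of exon the mRNA levels were unequal. The order *Fga*, *Fgg*, *Fgb* from high to low held in 12 of 12 mice. In noncystic +/+ kidneys *Fga* stood at 4.64 to 7.49, *Fgg* at 1.61 to 2.58 and *Fgb* at 0.644 to 0.668 CPM per kb. In cystic +/+ mouse 26 they stood at 12.002, 10.2 and 2.56 CPM per kb, so that *Fgg* came close to *Fga*, and in mouse 27 at 8.49, 6.75 and 1.495 CPM per kb.

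*Itih4*, an acute-phase protein of the inter-alpha-trypsin inhibitor family, was nearly unread in noncystic kidneys. It stood at 0.883, 0.285 and 0.0509 CPM in noncystic +/+ mice and at 0.599, 0.982 and 0.385 CPM in noncystic Δ17/Δ17 mice, which are 1 to 18 reads. Cystic +/+ mice 25, 26 and 27 had 21.3, 3.87 and 9.42 CPM (551, 79 and 200 reads), and cystic Δ17/Δ17 mice 28, 29 and 30 had 0.817, 0.391 and 3.32 CPM (17, 8 and 69 reads). All 3 cystic +/+ mice thus lay above all 9 other mice.

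*Hp*, for the haemoglobin-binding protein haptoglobin, stood at 13.8, 22.9 and 11.95 CPM in noncystic +/+ mice and at 14.3, 14.9 and 10.7 CPM in noncystic Δ17/Δ17 mice. It stood at 69.6, 31.03 and 102 CPM in cystic +/+ mice 25, 26 and 27 and at 5.58, 3.47 and 24.3 CPM in cystic Δ17/Δ17 mice 28, 29 and 30. The highest mouse was mouse 27 and not mouse 25. Cystic Δ17/Δ17 mice 28 and 29 lay below all 6 noncystic mice.

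*Ttr*, for the thyroxine and retinol carrier transthyretin, had the highest level per kb of exon of the 10 genes in each noncystic mouse, at 84.6 to 124 CPM per kb. It stood at 105, 100.4 and 147 CPM in noncystic +/+ mice, at 106, 117 and 114 CPM in noncystic Δ17/Δ17 mice, at 74.2, 26.8 and 36.2 CPM in cystic +/+ mice 25, 26 and 27, and at 75.9, 88.6 and 80.2 CPM in cystic Δ17/Δ17 mice. Every cystic mouse lay below every noncystic mouse. The summed level of 8 proximal tubule genes fell beside it, from 14536 to 15457 CPM in noncystic mice to 5018 to 6486 CPM in cystic +/+ and 6659 to 7910 CPM in cystic Δ17/Δ17 mice, and its part in the lower *Ttr* was not tested.

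Between cystic and noncystic *Pkd2* +/+ kidneys, *Itih4* had a fitted log2 fold change of 4.81 (SE 0.79), and the fibrinogens had 2.53 (SE 0.52) for *Fgb*, 2.35 (SE 0.48) for *Fgg* and 1.05 (SE 0.30) for *Fga*. *Hp* was higher by 2.06 (SE 0.51) and *Ttr* lower, at -1.35 (SE 0.25). The groups did not overlap for these 6 members, 5 of them higher and *Ttr* lower, where 22% of all genes tested were higher and 19.7% lower without overlap. The groups overlapped for the other 4 members, and their fitted values were 4.37 (SE 1.76) for *Alb*, 4.75 (SE 1.67) for *Apoa1*, 3.76 (SE 1.37) for *Apoh* and 4.70 (SE 1.74) for *Ahsg*. The threshold of an adjusted p under 0.05 was passed by 31.1% of all genes in this comparison, 16.9% higher and 14.2% lower.

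The same comparison without mice 19, 25 and 30 used cystic +/+ mice 26 and 27 against noncystic +/+ mice 20 and 21. These 3 mice were left out because more than 3 reads of *Cps1*, which is not a member, were counted in them, a choice made after the data were seen. The log2 fold changes were then 5.30 (SE 0.64) for *Itih4*, 1.62 (SE 0.31) for *Fgb*, 2.14 (SE 0.28) for *Fgg*, 0.75 (SE 0.19) for *Fga* and 1.94 (SE 0.38) for *Hp*. Of the carriers, *Ahsg* came to 3.36 (SE 1.29), from 0 to 1 read in mice 20 and 21 to 9 and 5 reads in mice 26 and 27, *Alb* came to 1.44 (SE 0.55), and *Apoa1* and *Apoh* turned to -0.67 (SE 0.80) and -0.72 (SE 1.11). *Ttr* came to -1.98 (SE 0.16). Of the 9 members with a higher fitted level in cystic mice, 7 kept that direction and 2 did not. Without the 3 mice 25.1% of all genes passed the threshold here, 13.5% higher and 11.6% lower.

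**Figure D4:**
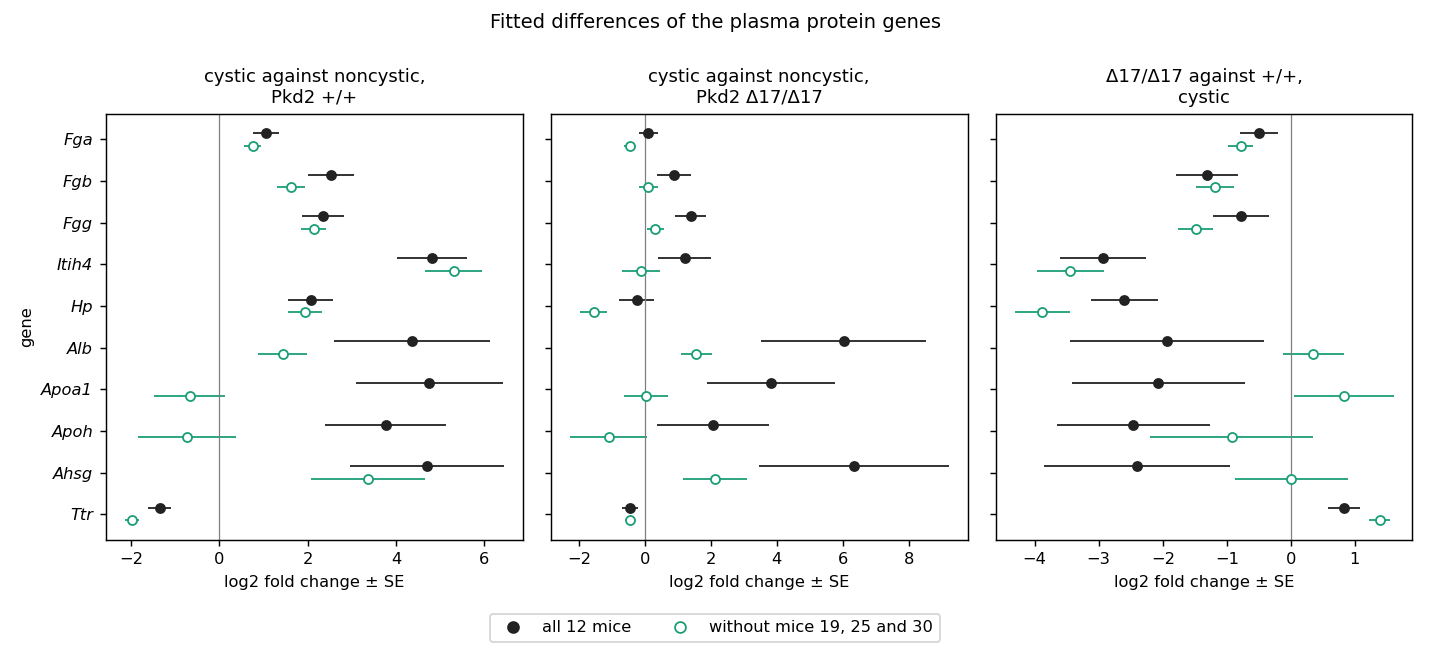
Fitted log2 fold changes with SE of the 10 genes in 3 comparisons, with all 12 mice (filled) and without mice 19, 25 and 30 (open). *Itih4*, the fibrinogens and *Hp* keep their place right of 0 in the left panel without the 3 mice, and *Apoa1* and *Apoh* move from 4.75 and 3.76 to -0.67 and -0.72.

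Cystic and noncystic kidneys were next compared among *Pkd2* Δ17/Δ17 mice, which share no mouse with the preceding comparison. *Fgg* was higher in cystic kidneys, with a log2 fold change of 1.38 (SE 0.48, adjusted p = 0.0460 from the quasi-likelihood test of edgeR), and it was the only 1 of the 10 members past the threshold, where 23% of all genes passed, 12.8% higher and 10.2% lower. The call rested on mouse 30: without it the log2 fold change of *Fgg* was 0.31 (adjusted p = 0.595 from the same test), and the call was also lost without mouse 22, 23 or 24. *Fgb* came to 0.89 (SE 0.52, adjusted p = 0.260), *Fga* to 0.10 (SE 0.30, adjusted p = 0.856), *Itih4* to 1.20 (SE 0.81, adjusted p = 0.338) and *Hp* to -0.26 (SE 0.53, adjusted p = 0.796), all from edgeR. *Alb* had 6.03 (SE 2.504) with an adjusted p of 0.0998 in that test, a value that mouse 30 carried. *Ttr* came to -0.46 (SE 0.24, adjusted p = 0.205 from edgeR) although the groups did not overlap. *Alb* and *Ahsg* were higher without overlap, where 20.2% of all genes were, and *Ttr* lower, where 17.7% were.

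Without mice 19, 25 and 30, 3 of 10 members passed the threshold in Δ17/Δ17 mice (18.2% of all genes, 10.2% higher and 7.99% lower), from 2 cystic against 3 noncystic mice. *Hp* fell by 1.56 on the log2 scale (SE 0.41, adjusted p = 0.0120 from edgeR) and *Ttr* fell by 0.45 (SE 0.14, adjusted p = 0.0367 from edgeR). *Alb* rose by 1.56 (SE 0.47, adjusted p = 0.0270 from edgeR), from 4 to 14 reads per mouse in noncystic kidneys to 25 and 33 reads in cystic kidneys. *Fgg* and *Itih4* came to 0.31 (adjusted p = 0.490) and -0.11 (adjusted p = 0.928) in that test.

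Deletion of the *Pkd2* motif was compared between the cystic groups, which shares the cystic +/+ mice with the comparison that chose the members and the cystic Δ17/Δ17 mice with the preceding comparison. Counts and tests of the members in it are therefore no independent evidence. *Hp* fell by 2.60 on the log2 scale (SE 0.52, adjusted p = 0.0174) and *Itih4* fell by 2.93 (SE 0.66, adjusted p = 0.0307), both from edgeR. These were 2 of 10 members, where 2.23% of all genes passed, 1.19% higher and 1.04% lower. Both groups were apart without overlap for these genes, where 10.2% of all genes were lower without overlap. *Fgb* had -1.31 (SE 0.48, adjusted p = 0.203), *Fgg* -0.78 (SE 0.44, adjusted p = 0.458) and *Fga* -0.50 (SE 0.29, adjusted p = 0.481) in edgeR's test, and for each of these mouse 30 lay within the range of the cystic +/+ mice. *Ttr* was higher in all 3 Δ17/Δ17 mice without overlap, where 8.79% of all genes were, with a log2 fold change of 0.83 (SE 0.25, adjusted p = 0.102 from edgeR). The *Hp* and *Itih4* calls were lost when mouse 27, 28 or 29 was left out, and that of *Itih4* also without mouse 25, with differences from -2.18 to -3.90 for *Hp* and from -2.13 to -4.25 for *Itih4* over all mice left out. Without mouse 30, 5 members were called lower, *Hp*, *Itih4* and the 3 fibrinogens. The number of all genes called also changed with the mouse left out, as given below. That setting keeps the cystic +/+ mice that chose the members, so its count is no independent evidence either.

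Without mice 19, 25 and 30, which leaves 2 cystic mice in each group, 6 of 10 members passed the threshold between the cystic groups, where 4.37% of all genes did, 2.29% higher and 2.08% lower. Mice 26 and 27 belong to the comparison that chose the members, and the 3 mice were left out after the data were seen. The counts and values of this setting are therefore no independent evidence. *Hp* fell by 3.88 (SE 0.43, adjusted p = 9.99e-05) and *Itih4* fell by 3.44 (SE 0.52, adjusted p = 0.00117) in edgeR's test. *Fgg* fell by 1.49 (SE 0.27, adjusted p = 0.00386), *Fgb* fell by 1.19 (SE 0.30, adjusted p = 0.0322) and *Fga* fell by 0.78 (SE 0.19, adjusted p = 0.0273), also from edgeR. *Ttr* rose by 1.38 (SE 0.16, adjusted p = 0.000147 from edgeR). *Alb*, *Apoa1*, *Apoh* and *Ahsg* had 0.35, 0.82, -0.92 and 0.01, each with an adjusted p of 0.704 or more in the same test. Mouse 30, which carried hepatocyte genes, also carried 499 CPM over 9 adrenal gland genes, against 5.73 to 11.8 CPM in 10 mice and 70.3 CPM in mouse 27, and the part of that tissue in the members' levels was not tested. Mouse 30 had the highest level of each fibrinogen in its group. Of mice 19, 25 and 30, mouse 25 had the lowest ratio of each fibrinogen to *Alb*. That ratio counts all fibrinogen reads of mouse 25, from whatever tissue. At the ratios of mouse 25, the *Alb* of mouse 30 would go with at most 13.2 of its 44.1 CPM of *Fga*. For *Fgg* this was 8.48 of 27.3 CPM and for *Fgb* 7.16 of 10.7 CPM. Its 6 tubule injury genes summed to 3545 CPM, against 2163 CPM in mouse 28 and 1970 CPM in mouse 29. The parts of liver and kidney in its fibrinogen reads were not tested.

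In noncystic kidneys 0 of 10 members passed the threshold between Δ17/Δ17 and +/+ mice with edgeR, as did 0.00406% of all genes (1 gene), and 1556 genes had an unadjusted p under 0.05. limma-trend and DESeq2 also called 0 members. The adjusted p of the members ran from 0.801 to 0.974 in edgeR's test. *Fga* and *Fgb* were higher in all 3 Δ17/Δ17 mice without overlap, by 0.45 (SE 0.30) and 0.33 (SE 0.55), where 5.69% of all genes were, and 0 members were lower without overlap, where 5.09% of all genes were. Without mice 19, 25 and 30 the count was 0 as well (0.00402% of all genes). The difference between the 2 cystic effects, the interaction, was called for 0 of 10 members (0.0122% of all genes, 0.00812% higher and 0.00406% lower, and 2053 genes at an unadjusted p under 0.05), with values of -3.61 (SE 1.18) for *Itih4*, -2.32 (SE 0.73) for *Hp*, -1.64 (SE 0.73) for *Fgb* and 0.89 (SE 0.35) for *Ttr*. limma-trend and DESeq2 also called 0. Without mice 19, 25 and 30 it was called for 4 members, whose values include the comparison that chose them and so are no independent evidence (0.507% of all genes, 0.285% higher and 0.221% lower), at -5.42 (SE 0.89) for *Itih4*, -3.50 (SE 0.56) for *Hp*, -1.83 (SE 0.38) for *Fgg* and 1.52 (SE 0.21) for *Ttr*.

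Of 18 listed genes of interleukin-6 family signalling, 7 rose, 2 fell and 9 did not pass between cystic and noncystic Δ17/Δ17 kidneys, where 12.8% of all genes rose and 10.2% fell, with a median log2 fold change of 0.68 beside -0.003 over all genes. The cytokine *Lif* rose by 3.59 (SE 0.36, adjusted p = 3.50e-06), from 0.817 to 1.10 CPM in the noncystic to 5.77 to 17.9 CPM in the cystic mice. *Il11* rose by 1.51 (adjusted p = 0.0156) and *Clcf1* by 0.63 (adjusted p = 0.0140), while *Il6* (0 to 17 reads per mouse) and *Osm* did not pass (adjusted p = 0.350 and 0.324), all from edgeR. Of the receptors, the shared chain *Il6st* rose by 0.65 (adjusted p = 0.000113) and *Osmr* by 0.72 (adjusted p = 0.0148), whereas *Lifr* and *Il11ra1* each fell by 0.58 (adjusted p = 7.50e-05 and 2.80e-05) and *Il6ra* had -0.47 (adjusted p = 0.108 from edgeR). *Stat3* rose by 0.93 (adjusted p = 2.58e-06) and *Socs3*, which STAT3 induces and which limits the signal, rose by 2.25 (SE 0.26, adjusted p = 9.69e-06 from edgeR). Without mice 19, 25 and 30, 4 of the 18 rose and 3 fell, where 10.2% and 7.99% of all genes did.

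*Socs3* and *Stat3* were also lower in cystic Δ17/Δ17 than in cystic +/+ kidneys. The other listed genes are not given for this comparison, so these values are no result on the whole list. *Socs3* stood at 65.8, 85.4 and 74.9 CPM in cystic +/+ mice 25, 26 and 27 and at 25.1, 27.3 and 52.3 CPM in Δ17/Δ17 mice 28, 29 and 30, against 5.47 to 9.72 CPM in noncystic mice. It fell by 1.11 (SE 0.23, adjusted p = 0.0191) and *Stat3* fell by 0.37 (SE 0.09, adjusted p = 0.0427), both from edgeR, where 1.04% of all genes were called lower. Among the cystic Δ17/Δ17 mice, mouse 30 was the highest for *Socs3*, *Lif*, *Osmr* and *Fgg* alike. It was also the highest of them for *Alb* (91.2 CPM) and for the sums of the hepatocyte (84.5 CPM), adrenal gland (499 CPM) and tubule injury genes (3545 CPM). Links between these levels were not tested.

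Of 17 other acute-phase genes 15 were tested, and in Δ17/Δ17 mice 1 rose and 1 fell with cystic disease, where 12.8% and 10.2% of all genes did. *Lcn2*, an iron-siderophore binding protein released by injured tubules, rose by 2.65 (SE 0.30, adjusted p = 9.93e-06) and the metallothionein *Mt1* fell by 0.90 (SE 0.26, adjusted p = 0.0185), both from edgeR. Between the cystic groups 3 of the 15 fell with the deletion, where 1.04% of all genes did: *Lcn2* by 1.09 (adjusted p = 0.0481), *C3* by 2.07 (adjusted p = 0.00820) and *Serpina3n* by 1.78 (adjusted p = 0.0201) in edgeR's test. *C3* and *Serpina3n* are named here after their values were seen. *C3*, the central complement protein, stood at 156, 118 and 117 CPM in cystic +/+ mice 25, 26 and 27 and at 21.1, 14.5 and 57.4 CPM in Δ17/Δ17 mice 28, 29 and 30. The liver acute-phase genes *Saa1*, *Orm1*, *Crp* and *Apcs* did not pass in either comparison, and their reads were few. The most in any mouse, each in mouse 25, were 8 for *Saa1*, 14 for *Orm1*, 44 for *Crp* and 49 for *Apcs*. Such counts limit what can be seen.

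**Figure D5:**
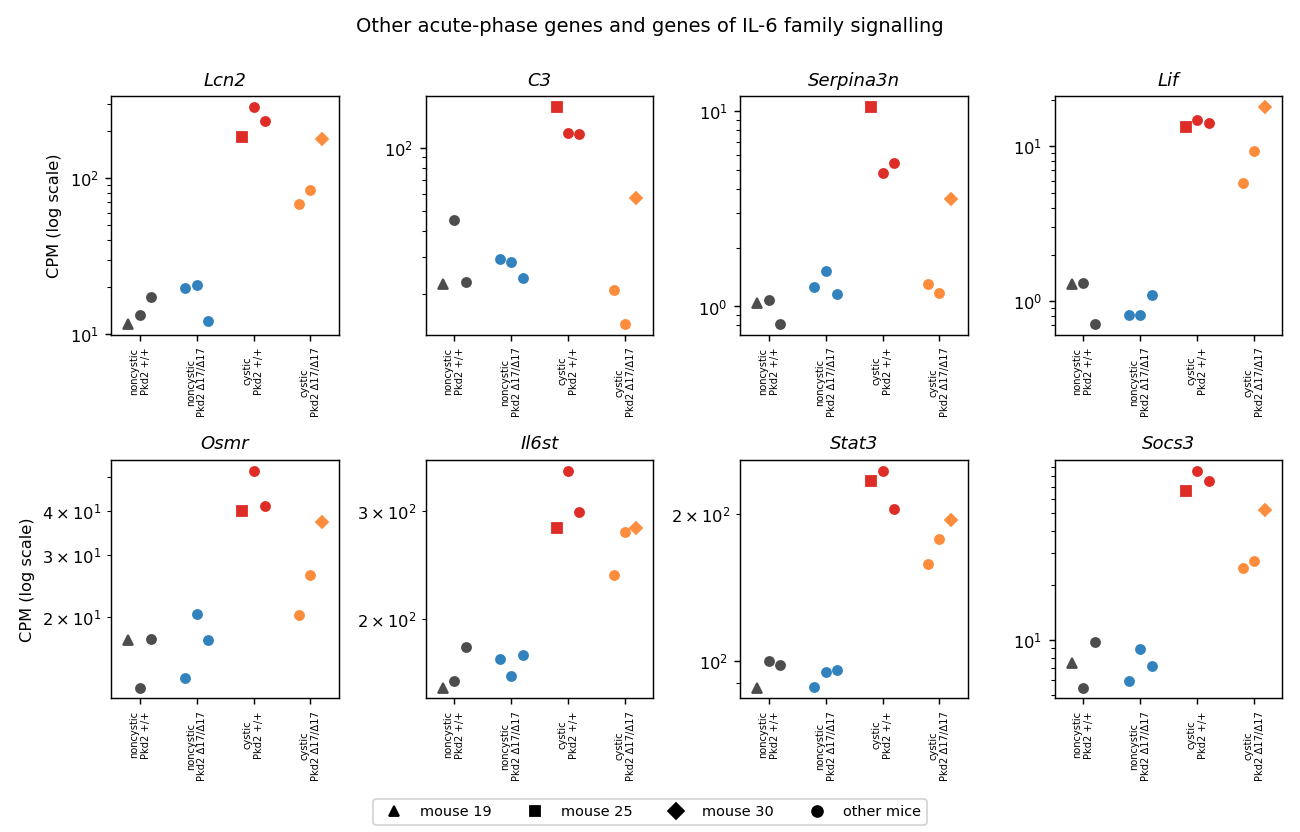
Level of 3 further acute-phase genes and 5 genes of interleukin-6 family signalling in each mouse, in CPM on a log axis that differs between panels, with symbols for mice 19, 25 and 30. *Socs3* lies at 65.8 to 85.4 CPM in cystic *Pkd2* +/+, 25.1 to 52.3 CPM in cystic Δ17/Δ17 and 5.47 to 9.72 CPM in noncystic mice.

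None of the listed liver-enriched transcription factors passed the test upward in Δ17/Δ17 mice. *Stat3*, which rose as given above, is not on that list. Of 12 listed liver-enriched factors 11 were tested, and in Δ17/Δ17 mice 3 fell and 0 rose with cystic disease: *Hnf4a* by 0.78 (SE 0.13, adjusted p = 0.000344), the bile acid receptor *Nr1h4* by 0.81 (SE 0.11, adjusted p = 5.05e-05) and *Cebpa* by 0.67 (SE 0.18, adjusted p = 0.00993), from edgeR. Of all genes, 10.2% fell and 12.8% rose in that comparison. *Hnf4a* and *Nr1h4* are also known from the proximal tubule, whose genes fell as given above.

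Fibrinogen is turned into fibrin by thrombin and removed by plasmin. Of 17 clotting and fibrinolysis genes, 4 rose and 2 fell with cystic disease in Δ17/Δ17 mice, where 12.8% and 10.2% of all genes did. Their median log2 fold change was 0.14. Without mice 19, 25 and 30, 3 rose and 2 fell, where 10.2% and 7.99% of all genes did. Tissue factor *F3* rose by 1.05 (SE 0.13, adjusted p = 1.50e-05), the fibrin cross-linker subunit *F13a1* by 1.57 (SE 0.18, adjusted p = 9.43e-06), *Anxa2*, a plasminogen co-receptor, by 0.71 (adjusted p = 0.000658) and the fibrinogen-binding integrin *Itgam* by 1.18 (adjusted p = 0.0340). The plasminogen activator *Plat* fell by 0.47 (adjusted p = 0.0227) and the plasmin inhibitor *Serpinf2* by 1.36 (adjusted p = 9.00e-05), all from edgeR. *F13a1* and *Itgam* are macrophage genes too, and the summed level of 5 macrophage genes was 95.7 to 113 CPM in noncystic, 223 to 292 CPM in cystic +/+ and 176 to 212 CPM in cystic Δ17/Δ17 mice. Their part in the rise was not tested.

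The receptors that take up albumin and the other carriers in the proximal tubule were lower. Of 17 receptors and partners of the carriers, 7 fell and 0 rose with cystic disease in Δ17/Δ17 mice, where 10.2% and 12.8% of all genes did. Without mice 19, 25 and 30, 6 fell, where 7.99% of all genes did. Megalin (*Lrp2*) fell by 0.77 (adjusted p = 0.000804), cubilin (*Cubn*) by 0.76 (adjusted p = 0.00108), amnionless (*Amn*) by 0.74 (adjusted p = 0.000227) and the albumin-recycling receptor *Fcgrt* by 0.64 (adjusted p = 8.74e-05), from edgeR. *Apoe* and *Apom* fell by 0.50 (adjusted p = 0.00438) and 0.69 (adjusted p = 0.00154), and *Dab2*, the endocytic adaptor, by 0.36 (adjusted p = 0.0204), in the same test. *Lrp2* and *Cubn* were higher in cystic Δ17/Δ17 than in cystic +/+ kidneys, by 0.64 and 0.59 (adjusted p = 0.0308 and 0.0481 from edgeR). The proximal tubule sums given beside *Ttr* moved the same way.

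The patterns of the members were compared over the 12 mice as log2CPM deviations from the group means, among 13848 genes whose mean log2CPM was 1 or more, as a description. *Alb* was most like *Ahsg* (Pearson r = 0.99), then *Mat1a* (0.97) and *Cps1* (0.97), and *Apoa1* was most like *Cps1* (0.97), *Bhmt* (0.96) and *Mat1a* (0.96). *Fga* and *Fgg* were each other's closest gene (0.92). *Fgb* was most like *Apoa1* (0.91) and *Vtn* (0.91), with *Fgg* at 0.90. *Hp* was most like the complement gene *C4b* (0.96), *Itih4* most like *Cep57* (0.93) and *Ttr* most like *Pigq* (0.97). All genes of a mouse share its library, and mice 19, 25 and 30 held most of the reads of *Alb*, *Ahsg* and *Apoa1*.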

How the data were processed

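Whole-kidney RNA of 12 mice was sequenced. Per the submitters' processing notes and the methods, reads were trimmed (Trim Galore 0.6.3) and aligned to GRCm38 (STAR 2.5.3a), and the authors deposited raw counts per gene without normalization (Ensembl annotation). All 12 columns were mapped by the labels. The members and gene lists were chosen with earlier results of these data known. The tests used edgeR 4.0.16 under R 4.3.3 (quasi-likelihood test, TMM, 1 mean per group, 8 residual degrees of freedom). A mean log2CPM of -3 or more (prior count 2) kept 24642 genes, and p-values were adjusted over them (Benjamini-Hochberg, threshold 0.05). The median standard error was 0.11 where mean log2CPM was 1 or more. Scripts were tested on simulated data. Alternatives were limma-trend 3.58.1, DESeq2 1.42.0, other scalings and filters, fits on the compared groups and each mouse left out. No libraries of a group were repeats (chi-square per degree of freedom 9.64 to 26.8). Exon lengths are from GENCODE M21. Named genes were the members, hepatocyte genes, interleukin-6 family cytokines and receptors and, per list, up to 5 genes of highest CPM past the threshold in each direction in Δ17/Δ17 mice.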

Additional observations from a re-analysis of the deposited data

How the results depend on the processing

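No paired analysis was possible because the labels give no litter or other link between mice of different groups. Of the 10 members, the number called between cystic and noncystic Δ17/Δ17 kidneys (1) was 0 with limma-trend and with DESeq2, 8 without a cutoff on low counts, 3 in a fit on the compared groups, 0 to 1 with each mouse left out and 3 without mice 19, 25 and 30. Between the cystic groups (2) it was 10 without a cutoff, 0 in a fit on the compared groups, 0 to 5 with each mouse left out (0 without mouse 27, 28 or 29 and 5 without mouse 30) and 6 without the 3 mice. It was 2 without a cutoff in noncystic mice. The interaction was called for 7 members without a cutoff, 0 to 1 with each mouse left out and 4 without the 3 mice. Standard errors shrank without a cutoff, where the SE of *Hp* between the cystic groups was 0.12 in place of 0.52, and such calls say little. Over all genes, the calls between the cystic groups (549) were 1128 with DESeq2, 1639 without a cutoff, 167 in a fit on the compared groups, 118 to 861 with each mouse left out and 1087 without the 3 mice. In noncystic mice (1) they were 3, 124, 2 and 0 to 2 in the first 4 of these settings. These causes were not tested. Between the cystic groups, the values with each mouse left out ran from -6.40 to 4.82 for *Alb*, -5.86 to 4.62 for *Apoa1*, -5.63 to 2.25 for *Apoh* and -6.62 to 4.22 for *Ahsg*, positive without mouse 25; without the 3 mice *Alb*, *Apoa1* and *Ahsg* had 0.35, 0.82 and 0.00901. Between the *Pkd2* +/+ groups *Alb* and *Ahsg* ran from -2.38 to 8.19 and from -1.92 to 10.0003, *Apoa1* ran from -1.94 to 6.01 and *Apoh* from -0.95 to 4.32, and without the 3 mice they had -0.67 and -0.72. In Δ17/Δ17 mice *Fga* ran from -0.47 to 0.34, *Itih4* from -0.11 to 1.65, *Apoh* from -1.11 to 3.01 and *Hp* from -1.56 to 0.17, and without the 3 mice *Fga*, *Itih4* and *Apoh* had -0.47, -0.11 and -1.11. The 9-mouse setting was chosen after seeing the data. Of all values of single members outside the main setting, 437 were counted as the same. They kept their direction and side of the threshold or, in the *Pkd2* +/+ comparison, which has no test, stayed within the SE. In that comparison 16 moved by more than the SE. In the others 42 passed the threshold newly and 17 no longer passed, and 19 values were counted as reversed in direction. With library totals in place of TMM, levels changed by a factor of 0.933 to 1.08, and each of the 10 members was highest in the same mouse. With 3 mice a group, 1 mouse moved the differences of the 4 carriers by the ranges given, and counts of 0 to 33 reads in the other mice limit what can be seen.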

Other observations

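Among the lists of other tissues, the 9 adrenal gland genes stood out with the cystic mice 27 (70.3 CPM in sum) and 30 (499 CPM). Of these genes, 8 were called higher in cystic than in noncystic Δ17/Δ17 kidneys, where 12.8% of all genes were. Without mice 19, 25 and 30, 0 were, where 10.2% of all genes were. The 7 fat tissue genes summed to 251 to 698 CPM in noncystic and 7.78 to 191 CPM in cystic mice. The 5 red blood cell genes summed to 420 to 1062 CPM in noncystic and 199.7 to 353 CPM in cystic mice. The 9 pancreas genes summed to 66.9 to 92.8 CPM in noncystic and 29.4 to 49.7 CPM in cystic mice, with 5 or 6 of them at 0 in each mouse. The 4 podocyte genes summed to 526 to 637 CPM in noncystic and 308 to 404 CPM in cystic mice, the 8 genes of the thick limb, distal tubule and collecting duct to 3820 to 4977 and 2168 to 4371 CPM, and the 6 tubule injury genes to 1506 to 1772 and 1970 to 4507 CPM.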
